A study of Mus musculus with 6 samples.

Results

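Desmosomes are the rivets between keratinocytes, and the genes described here encode their adhesive cadherins and the plaque proteins beneath them, measured in skin of mice with a targeted Hoxc13 gene. The 10 genes were chosen by name: the desmocollins Dsc1, Dsc2 and Dsc3, the desmogleins Dsg1a, Dsg2 and Dsg3, and the plaque genes Jup, Pkp1, Pkp3 and Dsp. Of these, 9 had a named probe set, among 15644 named genes in the table, and Dsg3 was not analysed here. Total RNA came from 3 samples of dissected mutant skin (knockout allele Hoxc13tm1Mrc) and 3 of wild type skin, all on a C57BL/6 background, labelled as male and with 5 dpn in their titles. Per the design text the samples are independent, and since separate animals are not named, p-values cover only the variation among these samples. Each sample was hybridised to 1 Affymetrix array, and the values are log2 expression values from RMA, which removes background, equalises the arrays and combines the probes of a gene into 1 value.

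In a desmosome, desmocollins and desmogleins span the membrane and bind those of the neighbouring cell. Inside the cell their tails bind plakoglobin and the plakophilins, which hold desmoplakin, and desmoplakin anchors the keratin filaments. The isoforms are layered in skin: Dsg1 and Dsc1 are typical of the upper epidermis, Dsg3 and Dsc3 of the lower layers, and Dsg2 and Dsc2 are the widespread isoforms of simple epithelia and heart. Hair follicles carry desmosomes too, and Hoxc13 is a homeobox transcription factor of the forming hair shaft.

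The Hoxc13 probe set read 8.95, 8.75 and 9.74 in mutant skin, against 9.63, 9.81 and 9.83 in wild type skin. Mutant replicate 3 thus lay within the wild type range, and the difference did not pass the test (-0.61, SE 0.23, limma adjusted p = 0.293). It did without mutant replicate 3 (-0.90, limma adjusted p = 0.00114). The labels do not say where the allele is disrupted relative to the probes, and the Hoxc13 level is no check of the genotype. Mutant replicate 3 also stood apart over all genes: its correlation with the other mutant arrays was 0.989 and 0.990, against 0.997 between those. The desmosome results and the list counts are therefore also given without it. Skin markers were read at high levels, with Krt5 between 12.77 and 13.27 and Krt10 between 13.80 and 14.13 over the 6 arrays. Against the label male, Xist read 11.15 to 11.67 and the 6 Y-linked probe sets at most 4.89 on all 6 arrays. Precision is set by the small number of arrays, 3 in each group.

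Among the 9 measured desmosome genes, 1 fell in mutant skin and none rose. That gene was Dsc2, which encodes desmocollin 2. The other 8 did not pass the limma test, at differences between -0.19 and 0.24. Over all 16331 probe sets tested, 2.08% passed in either direction, 1.6% passed as lower in mutant skin and 0.478% as higher. The median difference was -0.021 over the 9 genes and 0.0247 over all probe sets. These medians were -0.18 and 0.016 without mutant replicate 3.

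Dsc2 read 7.07, 7.15 and 7.92 in mutant replicates 1, 2 and 3, against 10.35, 9.57 and 9.78 in wild type replicates 1, 2 and 3. Every mutant array lay below every wild type array, which held in either direction for 2 of the 9 genes and 20.3% of all probe sets, with a gap of 1.645 between the highest mutant and the lowest wild type value. Dsc2 averaged 7.38 ± 0.47 in mutant skin and 9.90 ± 0.40 in wild type skin (SD, n = 3 each). The log2 difference was -2.52 (SE 0.27, limma adjusted p = 0.00317). On a linear scale the mutant value was 17.5% of wild type, with a 95% interval of 11.3% to 27.0%. The mutant values stayed well above the Y-linked probe sets and above the lower quartile of the arrays, which was 5.485 on mutant replicate 3. Without mutant replicate 3 the difference was -2.79, and over the 6 fits that left out 1 array each it ran from -2.79 to -2.29 and passed in all 6. By size Dsc2 ranked 63rd of the 261 probe sets called lower.

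Hair shaft transcripts were lower on the same mutant arrays. All 9 measured hair shaft keratins on a marker list fell, at a median of -6.43, and the mean of the list was 5.51 to 6.09 in mutant skin, against 11.63 to 11.95 in wild type skin. Of 7 inner root sheath markers 1 fell (Krt72, -2.20), and the list mean was 12.30 to 12.82 in mutant skin, against 12.85 to 12.93 in wild type skin. The Krt72 call was lost without mutant replicate 2 or any 1 wild type array. Among 6 basal keratinocyte markers none was called, at a median of 0.20, and among 6 suprabasal markers only involucrin (Ivl, -0.74) fell. Of 5 outer root sheath and companion layer markers 1 was called higher (Krt79, 0.54, limma adjusted p = 0.0435) and none lower. The Krt79 call was lost without any 1 array other than mutant replicate 3. None of 5 pigment cell or 5 sebaceous gland markers was called. With all 6 arrays 1.6% of all probe sets passed as lower and 0.478% as higher. Leaving out mutant replicate 3, 9 hair shaft, 3 inner root sheath and 1 suprabasal marker were called lower. So were 4 of the 5 pigment cell and 3 of the 5 sebaceous gland markers. Of the 5 outer root sheath markers, 1 was called lower and 2 higher. Of all probe sets, 6.23% passed there as lower and 7.95% as higher. In that fit 1 basal marker was called higher (Itga6, 0.34, limma adjusted p = 0.0305), and the basal median was 0.044. In bulk skin, fewer cells of a type and less RNA per cell cannot be told apart. The part of these cell types in the Dsc2 result was not tested.

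**Figure D1:**
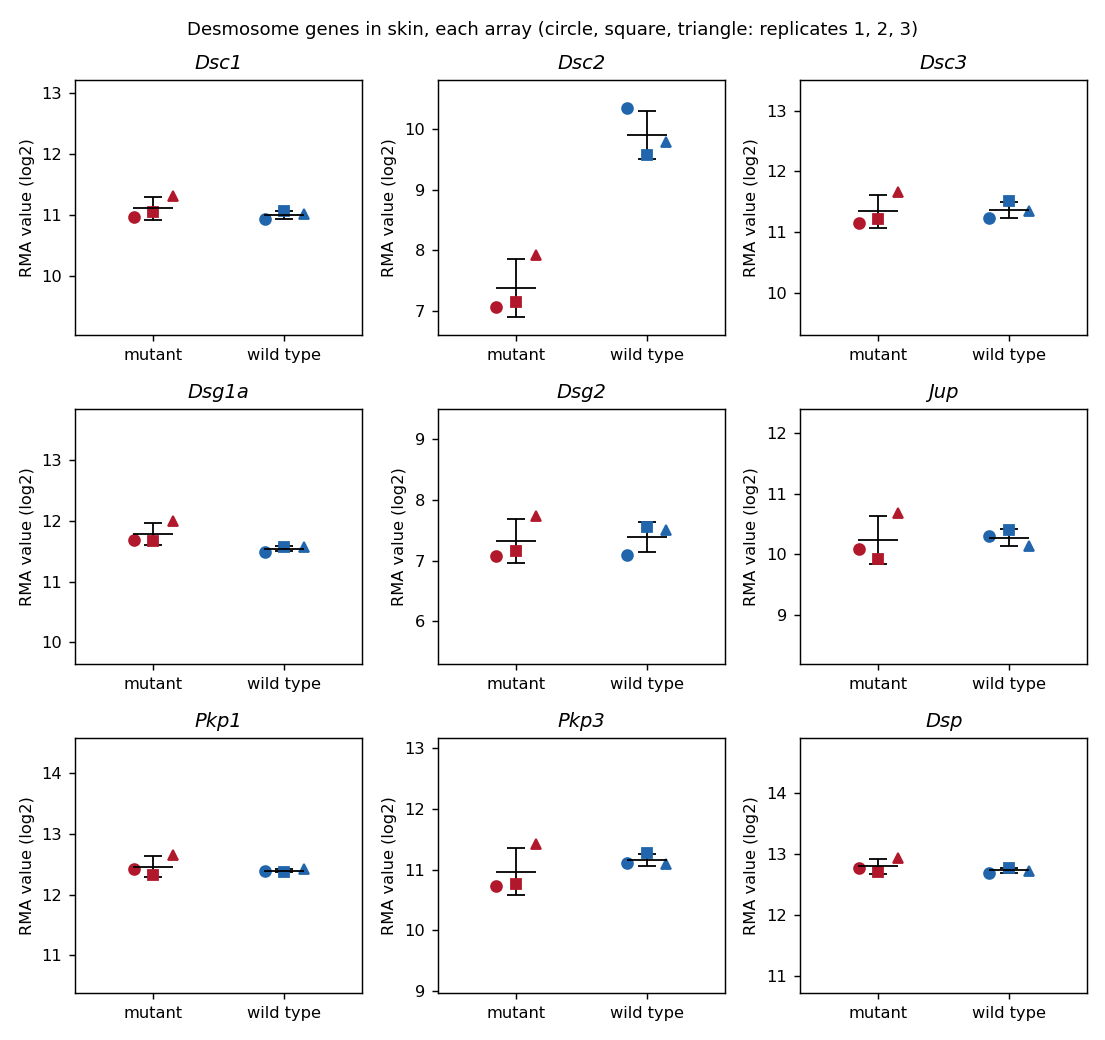
RMA values (log2, vertical axis) of the 9 measured desmosome genes on each array, with mutant skin on the left and wild type skin on the right of each panel. Circles, squares and triangles are replicates 1, 2 and 3, horizontal lines are means and error bars are SDs (n = 3 each). All panels span the same number of log2 units, and Dsc2 alone shows a wide gap between groups.

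The other desmocollins lie beside Dsc2 in the genome but not beside it in the data. All 6 listed cadherin genes belong to 1 cluster on mouse chromosome 18, in which Dsc2 sits between Dsc3 and Dsc1 (RefSeq, GRCm38.p6). Dsc3, a desmocollin of the lower epidermal layers, read 11.16, 11.21 and 11.66 in mutant skin, against 11.24, 11.51 and 11.35 in wild type skin. Its difference was -0.02 (SE 0.14), with a 95% interval of -0.35 to 0.31. Dsc1, the desmocollin of the upper layers, read 10.96, 11.05 and 11.32 in mutant skin, against 10.93, 11.06 and 11.02 in wild type skin. The groups overlapped in both genes. The interval of the Dsc1 difference of 0.10 ran from -0.14 to 0.35, so a change as large as that of Dsc2 lay outside it for either neighbour.

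The measured desmogleins, Dsg1a and Dsg2, gave no call. Dsg3, Dsg4, Dsg1b and Dsg1c had no named probe set. Dsg1a is a mouse counterpart of human DSG1, the target of autoantibodies in pemphigus foliaceus. It read 11.68, 11.67 and 12.00 in mutant skin, against 11.49, 11.57 and 11.58 in wild type skin. Every mutant array was above every wild type array, which held in this direction for 12.5% of all probe sets. The difference of 0.24 (SE 0.10, 95% interval 0.00050 to 0.48) had an adjusted p of 0.347 in the limma fit, and without mutant replicate 3 it was 0.13. Mice carry the close copies Dsg1b and Dsg1c, so the share of these copies in the Dsg1a probe set is uncertain. Dsg2, the widespread desmoglein, read 7.07, 7.16 and 7.73 in mutant skin, against 7.10, 7.55 and 7.50 in wild type skin. Its groups overlapped, and the interval of its difference of -0.06 ran from -0.51 to 0.39.

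Plaque genes gave no call with all 6 arrays, and their 4 differences lay between -0.19 and 0.07. Dsp, which encodes the keratin anchor desmoplakin, read 12.76, 12.70 and 12.94 in mutant skin, against 12.69, 12.78 and 12.72 in wild type skin. Its difference of 0.07 had the smallest SE of the 9 genes (0.083) and a 95% interval of -0.12 to 0.26. Pkp1, a plakophilin of the upper epidermis whose loss in humans makes skin fragile, read 12.42, 12.32 and 12.64 in mutant skin, against 12.38, 12.38 and 12.42 in wild type skin. The groups overlapped in both, and the Pkp1 interval ran from -0.15 to 0.29.

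Jup and Pkp3, like Dsc3 above, had a split among the mutant arrays, with replicates 1 and 2 below all wild type arrays and replicate 3 above them. This split was seen in 3 of the 9 genes and in 7.01% of all probe sets. Jup encodes plakoglobin, which serves in desmosomes and adherens junctions alike. It read 10.09, 9.92 and 10.67 in mutant replicates 1, 2 and 3, against 10.30, 10.40 and 10.13 in wild type skin. Pkp3, a plakophilin found in most layers of stratified epithelia, read 10.73, 10.76 and 11.42 in mutant skin, against 11.11, 11.27 and 11.10 in wild type skin. With all 6 arrays the differences were -0.05 for Jup and -0.19 for Pkp3. Without mutant replicate 3 Pkp3 was lower in mutant skin by the limma test (-0.41, SE 0.079, adjusted p = 0.0147), and Jup was at -0.27 with an adjusted p of 0.116. In that fit, 2 of the 9 desmosome genes passed, Dsc2 and Pkp3, both lower. Of all probe sets 14.2% passed there, 6.23% as lower and 7.95% as higher. That fit rests on a mutant pair of arrays that are close to each other, so its spread may understate that between mutant samples.

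**Figure D2:**
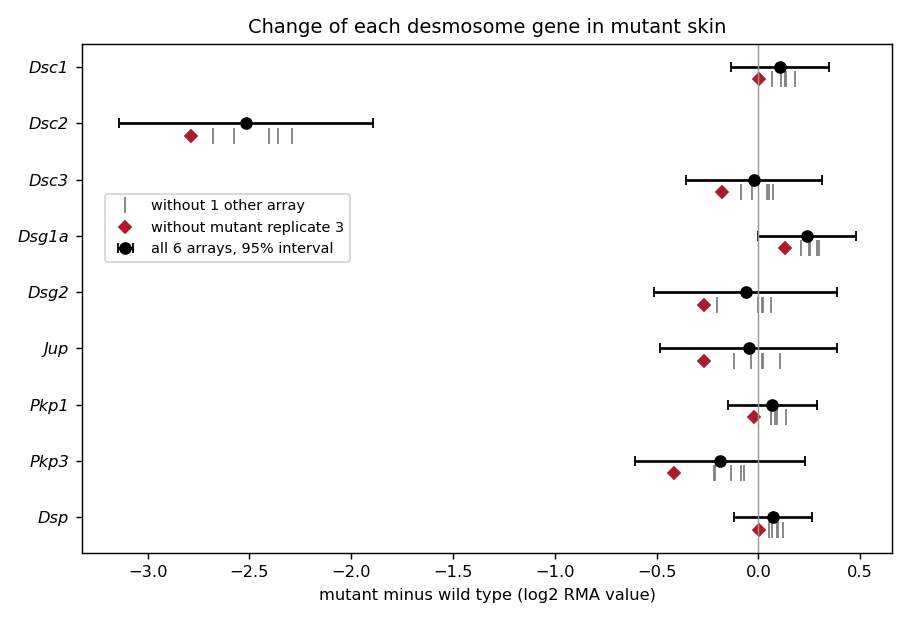
Difference between mutant and wild type skin (log2 RMA value, horizontal axis) for each desmosome gene. Black points with bars are the limma estimate from all 6 arrays with its 95% interval, red diamonds are the difference without mutant replicate 3, and grey ticks are the differences without each other array. Dsc2 lies between -3.14 and -1.89, and all bounds of the other 8 genes lie between -0.61 and 0.48.

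The change of Dsc2 was also set against that of each other desmosome gene within the same arrays. Over the 8 pairs, the Dsc2 change minus the change of the other gene ran from -2.76 (Dsg1a, SE 0.31) to -2.33 (Pkp3, SE 0.28). It was -2.62 for the neighbouring Dsc1 and -2.50 for Dsc3. An exact permutation test over 20 arrangements gave p = 0.1 (two-sided) for every pair, adjusted p = 0.1. This is the smallest value that 3 against 3 arrays allow. All 8 pairs share Dsc2, which was taken because it was called on the same arrays. Its gap between groups (1.645) exceeded the range of any other measured desmosome gene over the 6 arrays (at most 0.754, Jup). The p-value was thus fixed by that choice and adds no support. Measured from its wild type mean, the log2 ratio stood at -2.40 to -2.23 on the 3 mutant arrays for Pkp3, the narrowest of the 8 ranges, and at -2.86 to -2.18 for Dsp, the widest. Such a ratio shows unequal change and not that the other gene was constant.

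Dsc2 had both the smallest p and the widest range of the 9 genes over the 6 arrays (3.28 log2 units). The 5 named genes with the most similar profile, by the root mean square difference of centred values over 6 arrays, were Pla2g2e (0.25), Acsm3 (0.28), Atp12a (0.28), Cryba4 (0.28) and Mab21l4 (0.29). Pla2g2e encodes a secreted phospholipase, Acsm3 an acyl-CoA synthetase, Atp12a a proton-potassium pump and Cryba4 a beta-crystallin. Their differences in mutant skin ran from -2.88 for Acsm3 to -2.02 for Atp12a, and all 5 passed the limma test. Acsm3 read 5.40, 5.77 and 6.46 in mutant skin, against 8.83, 8.54 and 8.90 in wild type skin. These genes were picked for their likeness to Dsc2 on the same arrays, which fixes the direction and rough size of their differences. The calls of Pla2g2e (range -2.57 to -1.86), Atp12a (-2.39 to -1.81) and Cryba4 (-2.56 to -1.88) held without mutant replicate 3 but were lost without any 1 of the other 5 arrays.

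Mutant replicate 3 gave the highest of the 3 mutant values for all 9 desmosome genes, cadherins and plaque genes alike. The same held for 44.7% of all probe sets. Its values lay above the mean of mutant replicates 1 and 2 by 0.21 for Dsp, the least, up to 0.67 for Pkp3 and Jup and 0.82 for Dsc2, with a median of 0.47 over the 9 genes and 0.022 over all probe sets. In 8 of the 9, all but Dsc2, it was above the highest wild type array, as it was in 39.9% of all probe sets. The list of 11 adherens junction genes was likewise above every wild type array in mutant replicate 3, in 11 of 11. Basal keratinocyte markers differed by a median of 0.39 between mutant replicate 3 and the other mutant arrays. The median was 0.40 for outer root sheath, 0.37 for inner root sheath, 0.59 for pigment cell and 0.45 for sebaceous gland markers. It was -0.11 for suprabasal, -0.31 for hair shaft and -0.77 for skeletal muscle markers. The mean of the 7 skeletal muscle markers was 10.54 in mutant replicate 3 and 11.67 and 11.01 in mutant replicates 1 and 2, against 9.91 to 11.22 in wild type skin. The part of these markers in the desmosome values of that array was not tested.

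**Figure D3:**
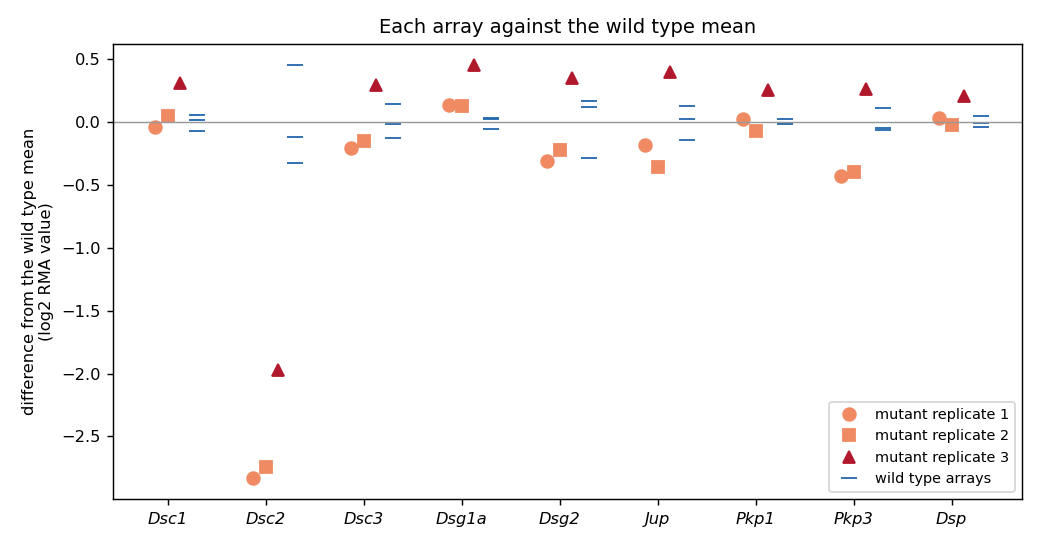
Values of each array minus the wild type mean (log2 RMA value, vertical axis) for the 9 desmosome genes. Light circles and squares are mutant replicates 1 and 2, dark triangles are mutant replicate 3 and blue dashes are the wild type arrays. The triangle is the highest mutant symbol for every gene, and only for Dsc2 does it lie below the wild type arrays, at -1.97.

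Of the other desmosome components listed, Dsg1b, Dsg1c and Dsg4 had no named probe set. None of the 8 measured genes passed the test, at a median of -0.08, or -0.17 without mutant replicate 3. Closest was Pkp2, the plakophilin of simple epithelia and heart. It read 7.68, 7.56 and 7.72 in mutant skin, against 8.06, 7.83 and 8.20 in wild type skin. The mutant arrays were all below the wild type arrays, which held in this direction for 7.82% of all probe sets, and the difference was -0.38 (limma adjusted p = 0.153). Perp, a tetraspan membrane protein of desmosomes, was at 0.03, the plakins periplakin (Ppl) and envoplakin (Evpl) at -0.18 and -0.20, and corneodesmosin (Cdsn) at -0.15. Without mutant replicate 3, 4 of the 8 were called lower, namely Pkp2 (-0.41), Ppl (-0.33), Evpl (-0.37) and Cdsn (-0.53). In that fit 6.23% of all probe sets passed as lower.

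The adherens junction and epidermal keratin lists gave no call with all 6 arrays. None of 11 adherens junction genes passed, at a median of 0.042, or -0.018 without mutant replicate 3. The smallest p was that of Nectin3 (0.28, limma adjusted p = 0.191). Without mutant replicate 3 Nectin3 was called higher (0.35) and Nectin1 lower (-0.41), in a fit where 14.2% of all probe sets passed. E-cadherin (Cdh1) was at 0.03 and beta-catenin (Ctnnb1) at 0.15. None of 9 measured epidermal keratins passed, at a median of 0.065, or -0.021 without mutant replicate 3, with the smallest p at Krt2 (-0.27, adjusted p = 0.181). Krt2 was also the only one called without mutant replicate 3 (-0.34), and its values of 3.61 to 4.04 were no higher than those of Y-linked genes, which reached 4.89. The keratin pair of the basal layer, Krt5 and Krt14, was at 0.15 and 0.20, and the suprabasal pair, Krt1 and Krt10, at 0.07 and 0.03.

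Of 13 measured proteases and inhibitors linked to the shedding of desmosomes, 2 fell. With all 6 arrays 1.6% of all probe sets passed as lower. St14 encodes matriptase, a membrane protease of the epidermis and follicle. It read 9.66, 9.65 and 9.88 in mutant skin, against 10.33, 10.30 and 10.24 in wild type skin, a difference of -0.56 (SE 0.085, limma adjusted p = 0.0196). Spint1, which encodes an inhibitor of matriptase, read 9.49, 9.40 and 9.87 in mutant skin, against 10.37, 10.28 and 10.28 in wild type skin, a difference of -0.72 (SE 0.12, limma adjusted p = 0.0339). In both genes every mutant array lay below every wild type array, which held in this direction for 7.82% of all probe sets. The groups did not overlap, in either direction, for 5 of the 13 genes and 20.3% of all probe sets. The others of these were Klk6, Spink5 and Klk7, all higher in mutant skin and not called with all 6 arrays. The St14 and Spint1 calls held without mutant replicate 3 and were lost without any 1 of the other 5 arrays. Over these fits the difference was -0.63 to -0.52 for St14 and -0.86 to -0.63 for Spint1. The list median was -0.059, and the kallikrein genes Klk5, Klk6 and Klk7, whose proteases cut corneodesmosomes or are close kin of those that do, were not called with all 6 arrays. Klk6 had the largest of these differences (0.77, adjusted p = 0.215). Without mutant replicate 3, 4 members of the list were called lower and 1 higher, which was Klk6 at 0.44 (limma adjusted p = 0.00725). In that fit 6.23% of all probe sets passed as lower and 7.95% as higher.

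Among 10 measured transcription factors linked to desmosome genes, only Foxn1 fell, and none rose. Of all probe sets, 1.6% passed as lower with all 6 arrays and 0.478% as higher. Foxn1, the factor lost in nude mice, read 6.80, 6.80 and 7.07 in mutant skin, against 8.23, 8.01 and 8.08 in wild type skin, a difference of -1.21 that passed in each of the 6 fits that left out 1 array. Grhl1, a grainyhead-like factor that in mice acts on the Dsg1 genes, was at 0.09, and Trp63, which drives Perp, was at 0.29. Neither passed the test. Without mutant replicate 3, 4 of the 10 were called lower, namely Foxn1, Hoxc13, Lef1 and Cebpb, in a fit where 6.23% of all probe sets were.

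**Figure D4:**
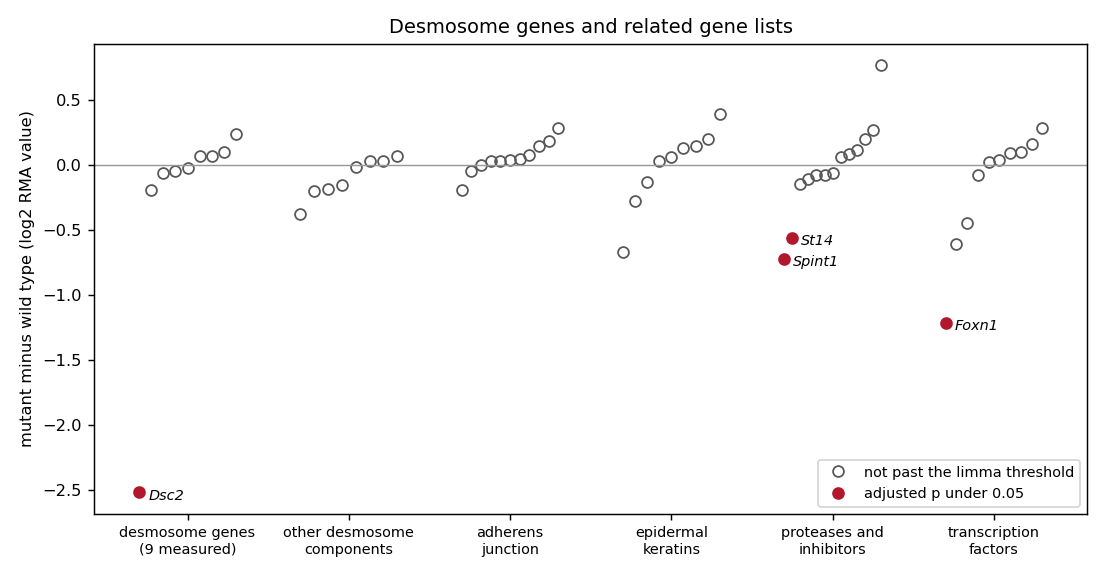
Difference between mutant and wild type skin (log2 RMA value, vertical axis) for the desmosome genes and 5 related gene lists, each point being 1 gene sorted by size within its list. Filled red points passed the limma test at an adjusted p under 0.05, and open points did not. Filled points are Dsc2, St14, Spint1 and Foxn1.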

How the data were processed

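The authors deposited log2 values from RMA, named in the submitters' processing notes, without a version in the sources used here. Per the labels' protocols, RNA was amplified once from an oligo(dT) primer and labelled with biotin. RMA gives all arrays the same distribution, which hides a shift in overall RNA amount, and differences of low values come out too small. Of 16395 probe sets, 64 controls were left out. Names came from the array annotation, with 1 symbol for 15644 probe sets and none for 687, and the RefSeq gene table of GRCm38.p6 was used for names and neighbours only.

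Mutant and wild type samples were grouped by their titles and compared with limma 3.58.1 in R 4.3.3, two-sided, on all 16331 probe sets, without filter or block. P-values were adjusted by Benjamini-Hochberg, with a threshold of 0.05. The code was tested on simulated data. Members and lists were chosen with earlier results of these data known. All members were named, with Hoxc13 and Foxn1. From each other related list plotted beside the desmosome genes, up to 4 called genes or else the gene of smallest p were named. The cell type marker lists did not follow this rule, and not all of their called genes were named. Further genes were named as examples after their values were seen. Figures used matplotlib 3.10.9.

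Alternatives were a filter on the lowest 0.25 of mean levels, repeated quantile normalisation, centring, a trended robust prior, a block for the replicate number, weighting of arrays, and leaving out each array.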

Additional observations from a re-analysis of the deposited data

How the results depend on the processing

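Dsc2 passed the limma test under all 12 alternatives, with differences from -2.79 to -2.29. The count of called desmosome genes was 1 under 11 of them and 2 without mutant replicate 3, a range of 1 to 2 over the fits that left out 1 array. Array weights gave 1880 calls over all probe sets, against 339, and the replicate block gave 197. Leaving out 1 array gave 151 to 2316 calls, the highest without mutant replicate 3. With the replicate block Dsc2 had an adjusted p of 0.0104, and no call of a desmosome gene changed. Same-numbered arrays were not shown to be paired (correlations of deviations 0.036, -0.12 and -0.087).

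Among uncalled genes, the sign depended on single arrays for Dsc3 (-0.18 to 0.072), Dsg2 (-0.27 to 0.062), Jup (-0.27 to 0.11) and Pkp1 (-0.023 to 0.14), and Pkp1 was at -0.0020 with array weights. Pkp3 ran from -0.41 to -0.068. The cause was not tested. With all 6 arrays the SEs of these 8 genes were 0.083 to 0.19, which limits what could be called.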
